A study of Mus musculus with 8 samples.

Results

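The kappa variable (V) segments of the mouse are described here in resting B cells and T cells. They were all Ensembl gene IDs of the count tables whose symbol begins with Igkv, which gave 160 of 53801 IDs. The number before the hyphen in a symbol names the V family, and the 160 members fell into 20 families. In the RefSeq table of GRCm38.p6, 101 members are V segments and 59 are V segment pseudogenes. All lie on chromosome 6 between 67555636 and 70704177, on one side of Igkj1 (70722562 to 70722599), the first joining segment, and of the constant gene Igkc (70726435 to 70726754). Spans ran from 209 to 1167 bases, and 1 member, the pseudogene Igkv17-134, overlaps another RefSeq gene.

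During B cell development the recombinase joins a kappa V segment to a J segment, and the cell then transcribes that V-J unit together with Igkc into the mRNA of its kappa light chain. A mature B cell usually carries a single productive light chain, so the mRNA of a B cell population is a mixture over many cells, each with its own V segment. Plasma cells, the antibody-secreting descendants of B cells, hold far more light chain mRNA per cell than resting B cells. T cells rearrange T cell receptor genes instead and are not known to make kappa chains.

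The cells came from spleens of B6 mice, and age and sex are not given in the labels. Resting B cells and resting T cells were sorted with magnetic kits and kept in complete RPMI medium for 2 h. Ribosome profiling, in which the stretches of mRNA shielded by ribosomes from nuclease (footprints) are sequenced, gave the translated fraction after 15 min with cycloheximide at 100 µg/ml. mRNA was measured by RNA-seq. The 4 groups were B cell footprints (libraries 1 and 3), B cell RNA-seq (1 and 3), T cell footprints (1 and 2) and T cell RNA-seq (1 and 4). Every group thus holds n = 2 libraries, and the labels do not say whether the 2 come from separate animals, so each p-value rests on the spread of these libraries only, which may be technical. An exact permutation test of 2 against 2 cannot go below p = 0.333, and therefore single shares are given as descriptions.

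Gene counts summed to between 136433 and 627833 in footprint libraries and between 8945905 and 10050986 in RNA-seq libraries. Marker genes followed the cell labels. All 21 genes of the B cell identity list, among them the B cell receptor subunit Cd79a and the surface protein Ms4a1, passed the test as higher in B cells in both assays. All 20 genes of the T cell identity list were lower in B cell footprints, and 3 of 20 were in B cell mRNA. Over all genes tested, 8.38% were called higher in B cells and 4.80% lower in footprints, and 9.40% and 9.06% in mRNA. The RNA-seq libraries numbered 1 stood apart from their partners. Jchain, the plasma cell gene that links antibody units, had 1268 and 250.5 CPM (counts scaled to the library total) in B cell RNA-seq libraries 1 and 3, and 972 and 59.6 CPM in libraries 1 and 4 of T cells. The neutrophil gene Mpo had 65.6 and 0 CPM in B cells and 89.5 and 0.894 CPM in T cells. The list of 10 myeloid genes to which Mpo belongs did not follow it as a sum. That sum was 134 and 137 CPM in B cell RNA-seq libraries 1 and 3, and 164 and 270 CPM in T cell libraries 1 and 4. The summed T cell identity list had 110 and 1270 CPM in B cell RNA-seq libraries 1 and 3, against 10689 and 12446 CPM in those of T cells. In bulk samples fewer cells of a type and less RNA per cell cannot be told apart. Tests that rest on these libraries are given below with and without them.

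The segments were first counted as present or absent. Of the 160 members, 123 had at least 1 count in some library, 41 had counts in all 8 libraries and 37 had none in any. B cell footprints held 96 segments in library 1 and 98 in library 3. B cell mRNA held 120 and 116. Counts were found for 93 of the 101 V segments in B cell footprints and for 99 of 101 in B cell mRNA. Igkv1-131 and Igkv1-35 were the V segments without a count in any of the 8 libraries. Pseudogenes were sparse, with counts for 10 of 59 in B cell footprints and 22 of 59 in B cell mRNA. They took 1.57% and 1.14% of Igkv counts in the footprint libraries and 0.928% and 0.777% in the mRNA libraries. Igkv14-126 (67896177 to 67896642), which RefSeq classes as a pseudogene, stood above the other pseudogenes, with 14 and 18 counts in B cell footprints and 269 and 64 in B cell mRNA.

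Igkv segments as a whole took 0.699% and 0.939% of all counts in B cell footprint libraries 1 and 3, from 1656 and 2184 counts. In B cell RNA-seq libraries 1 and 3 they took 0.452% and 0.219%, from 42767 and 19703 counts. Both footprint values lay above both mRNA values. Jchain, Igha and the sum of the plasma cell list were higher in the library with the higher Igkv share of each assay. Jchain had 1081 and 2382 CPM and Igha 2605 and 5822 CPM in B cell footprint libraries 1 and 3, and the plasma cell list summed to 2496 and 4205 CPM, with 0 of its 11 genes at 0. Library 3, the higher one, also had the higher Igkv share, and in mRNA library 1 was the higher one in both. Igkc and Ighm went the other way in footprints, with 30138 and 19448 CPM and 14805 and 12070 CPM in libraries 1 and 3. In mRNA they went with the Igkv share, with 10152 and 4725 CPM and 11899 and 9194 CPM. With 2 libraries a gene can only go with or against that share. The part of plasma cells in the Igkv counts was not tested. With all Igkv counts summed, the log2 difference of footprints over mRNA was 1.28 ± 0.52 (SE), with an adjusted p of 0.120 in edgeR's quasi-likelihood test. It did not pass the threshold of 0.05. Of all genes tested in that fit, 7.41% were called higher in footprints and 12.3% lower. Igkc, the constant region, gave 1.70 ± 0.58 with an adjusted p of 0.0834. Among light chain V counts, Igkv made up 91.8% and 92.3% in B cell footprints and 88.9% and 89.2% in B cell mRNA, the rest being lambda V segments.

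Usage within the locus was broad and similar between B cell libraries. The effective number of segments, the inverse of the summed squared shares, was 39.1 and 42.4 in B cell footprints and 37.2 and 39.4 in B cell mRNA. The 10 most used segments held 39.7% and 38.3% of Igkv counts in footprints and 41.5% and 39.5% in mRNA. When each library was thinned to 150 Igkv counts, 52.9 and 55.4 segments were expected in B cell footprints and 54.1 and 55.4 in B cell mRNA. The ranges of the assays overlapped at this common depth. Across the 101 V segments, Spearman's rho of the shares was 0.877 between the B cell footprint libraries, 0.964 between the B cell mRNA libraries, and 0.850 to 0.858 between a footprint and an mRNA library. These correlations are across genes of the same libraries, which are not independent replicates.

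The families differed in rank between the assays. On counts, Igkv6 led B cell footprints, with 14.5% and 17.6% of Igkv counts in libraries 1 and 3, followed by Igkv4 with 10.4% and 11.6% and Igkv1 with 12.0% and 9.39%. In B cell mRNA Igkv1 led with 18.8% and 19.8%, then Igkv4 with 16.5% and 15.1% and Igkv6 with 9.73% and 11.0%. Counts favour longer exons, but exon lengths were not given in the sources used here. Genomic spans stood in for them, and Igkv1 segments such as Igkv1-117 span 735 bases against 466 for Igkv10-96. Spans can differ through the intron, so division by span is no exact correction for length. Per kb of span, which includes the leader intron, Igkv6 still led the footprints at 15.8% on average, while Igkv4 (16.4%) stood before Igkv1 (14.2%) in mRNA.

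**Figure D1:**
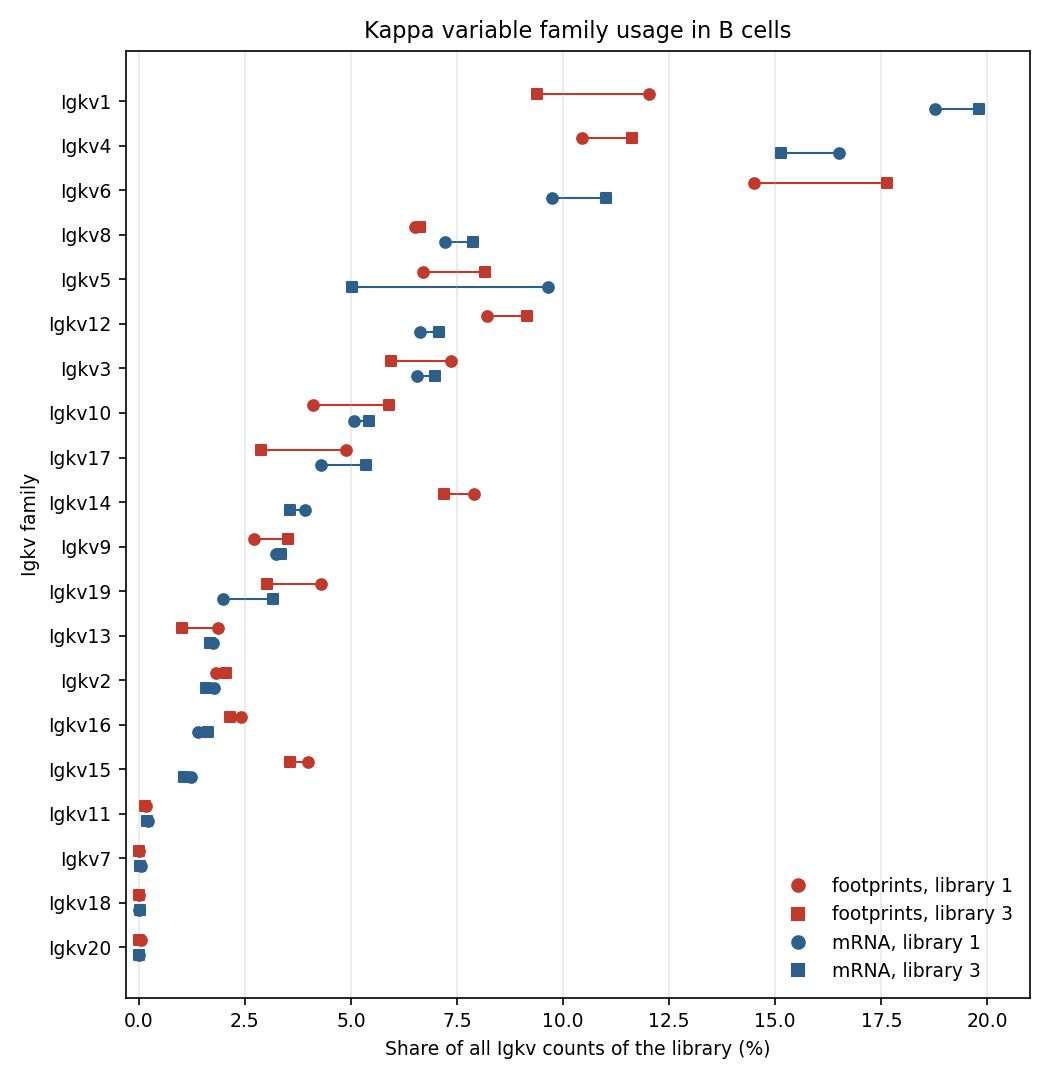
Share of all Igkv counts (x axis, %) taken by each of the 20 families (y axis, ordered by the mRNA mean) in the 2 footprint libraries (red, upper row of each pair) and the 2 mRNA libraries (blue) of B cells; lines join the libraries of an assay. Igkv6, Igkv14 and Igkv15 sit to the right in footprints and Igkv1 and Igkv4 to the right in mRNA, while the 2 mRNA libraries lie far apart for Igkv5.

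Of the 20 families, 6 had a higher share in both B cell footprint libraries than in both mRNA libraries, 6 a lower share in both, and 8 overlapped. With every gene's counts divided by the Igkv sum of the library, 3.48% of all genes tested in the segment fit lay above in both footprint libraries and 69.1% below. Family shares sum to a fixed total and those genes do not, so the 2 kinds of count are not on an equal footing. These counts were the same per kb of span. Igkv15, a family in which only Igkv15-103 had counts in B cells, took 3.99% and 3.57% in footprints, against 1.24% and 1.07% in mRNA, a ratio of means of 3.28. Igkv14 had 7.91% and 7.19% in footprints, against 3.91% and 3.57% in mRNA, a ratio of 2.02. Igkv6 followed with a ratio of 1.55 and Igkv16 with 1.51, while Igkv12 (1.27) and Igkv2 (1.16) were nearer to 1.

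The families with a lower share in footprints included the largest families of the mRNA. Igkv1 had a ratio of footprint to mRNA share of 0.555 and Igkv4 of 0.698. Igkv8 had 6.52% and 6.64% in footprints, against 7.21% and 7.87% in mRNA, a ratio of 0.873. Igkv11, Igkv7 and Igkv18 were the other 3, with mean shares in footprints of 0.159%, 0 and 0, against 0.202%, 0.0335% and 0.0224% in mRNA. Igkv7 and Igkv18, with 1 segment each, had no footprint count, which allows a share of up to 0.181% in library 1 and 0.137% in library 3, above their mRNA shares. Igkv5 overlapped, with 6.70% and 8.15% in footprints and 9.66% and 5.03% in mRNA. Leaving out the pseudogenes, or the segments Igkv5-39 and Igkv4-61, gave the same counts of 6, 6 and 8.

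Tested on the scale of the whole table, where a difference is relative to all genes and not to the other V segments, 17 of 20 families passed the filter on low counts. Of these, 6 were called higher in footprints and 0 lower, where 7.35% of all genes tested were called higher and 12.2% lower. DESeq2 called 7 higher and 0 lower, and at an unadjusted p under 0.05 edgeR had 12 higher and 0 lower. All 17 estimates were above 0, with a median of 1.24, against -0.33 over all genes. Igkv15 had 265.8 and 356 CPM (scaled by TMM) in footprints, against 58.8 and 22.3 CPM in mRNA, a log2 difference of 2.94 ± 0.49 with an adjusted p of 0.00982 in edgeR. Igkv14 had 528 and 717 CPM, against 186 and 74.8 CPM, a log2 difference of 2.25 ± 0.47 (edgeR adjusted p = 0.0194). Neither family overlapped between the assays.

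Igkv6, Igkv16, Igkv19 and Igkv12 were the other families called higher in footprints, with log2 differences of 1.97 ± 0.46, 1.90 ± 0.39, 1.87 ± 0.28 and 1.65 ± 0.45 and edgeR adjusted p-values of 0.0287, 0.0189, 0.00709 and 0.0422. Igkv1 and Igkv4 had the smallest estimates, at 0.41 ± 0.41 and 0.75 ± 0.49, and overlapped between assays. The fit of all 8 libraries called 0 families. The calls also depended on single libraries. Without B cell footprint library 3, and likewise without B cell RNA-seq library 3, 3 families were called, and without RNA-seq library 1 there were 13. Igkv6 (1.47 and 1.55, adjusted p 0.0563 and 0.122), Igkv12 (1.23 and 1.20, adjusted p 0.110 and 0.210) and Igkv16 (1.67 and 1.48, adjusted p 0.0517 and 0.0662) were not called without either library 3. With library sizes set to the sum of Igkv counts, so that a difference is one of usage, 0 of 17 families passed and Igkv15 gave 1.71 with an adjusted p of 0.174. That scaling moved the median of all genes by -1.46.

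Single segments showed what lay behind the family shares. The most used segment of B cell mRNA was Igkv1-117 (chromosome 6, 68121091 to 68121825). It had 68 and 57 counts in footprints, 4.11% and 2.61% of Igkv counts, against 2913 and 1361 counts in mRNA, 6.81% and 6.91%. Igkv1-110 (68270527 to 68271265) had 2.54% and 2.34% in footprints, against 6.14% and 6.19% in mRNA. Igkv1-135 had 3.93% and 2.79% in footprints, against 4.41% and 5.36% in mRNA. All 3 of these Igkv1 segments had lower shares in both footprint libraries than in both mRNA libraries.

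The most used segments of the footprints were others. Igkv6-32 (70074024 to 70074584) had 101 and 60 footprint counts, 6.10% and 2.75% of Igkv counts, against 1.33% and 1.94% in mRNA. Igkv14-111 (68256404 to 68256869) had 4.65% and 3.89% in footprints, against 2.53% and 2.34% in mRNA. Igkv6-15 had 3.38% and 5.04% in footprints, against 2.87% and 3.15% in mRNA. Igkv15-103 (68437468 to 68437925) had 3.99% and 3.57%, against 1.24% and 1.07%. These 4 segments did not overlap between the assays, and the spread between the footprint libraries was wide for Igkv6-32. Per kb of span the first 5 of the footprints were Igkv14-111, Igkv10-96, Igkv15-103, Igkv6-15 and Igkv6-32, in that order.

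Of the other segments among the first 10 in an assay, 3 are given next that overlapped. Igkv10-96 had 3.08% and 5.17% of Igkv counts in footprints and 3.87% and 4.24% in mRNA. Igkv19-93, the single member of its family, had 4.29% and 3.02% in footprints and 1.98% and 3.17% in mRNA. Igkv12-44 had 2.54% and 3.85% in footprints and 2.65% and 2.45% in mRNA. For these 3 the difference between assays was within the spread of the libraries. Igkv17-127 had 2.11% and 1.14% in footprints, against 2.36% and 3.26% in mRNA, and so was lower in both footprint libraries without overlap.

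**Figure D2:**
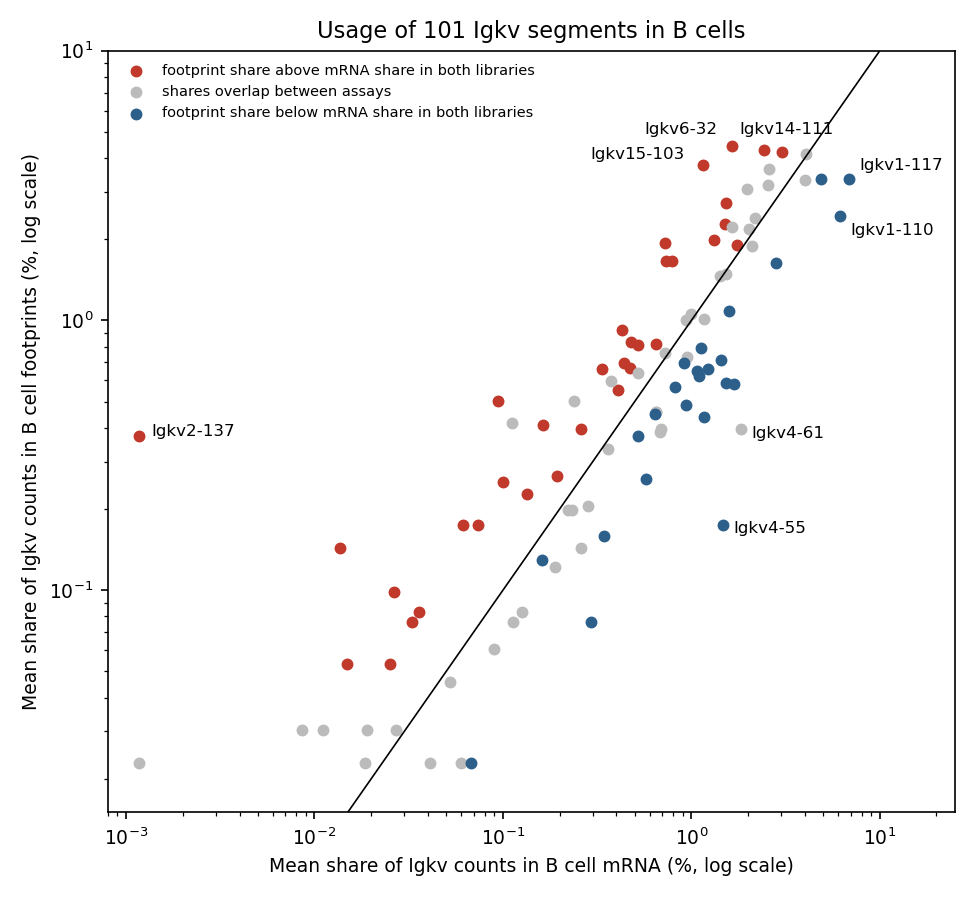
Mean share of Igkv counts in B cell footprints (y axis, %, log scale) and in B cell mRNA (x axis, %, log scale) for the 101 segments with counts in both assays; the line marks equal shares and the colours tell whether the libraries of the assays overlap. Igkv6-32, Igkv14-111 and Igkv15-103 lie above the line, Igkv1-117, Igkv1-110 and Igkv4-55 below it, and Igkv2-137 far to the left.

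Over all 160 members, 35 had a higher share in both footprint libraries than in both mRNA libraries of B cells, 40 a lower one and 85 overlapped, beside the 3.48% and 69.1% of all genes given above. Low counts set many of these differences, since 1 footprint count was worth 4.22 and 4.30 CPM in libraries 1 and 3 and 1 mRNA count 0.106 and 0.111 CPM. Near-identical copies of V segments could also divide reads between them, and footprints are shorter than RNA-seq fragments. How reads with several matches were counted was not given in the sources used here, so values of single segments within a family are uncertain. Igkv4-55 (69607275 to 69607801) was among the abundant segments with few footprints, with 2 and 5 footprint counts, 0.121% and 0.229% of Igkv counts, against 563 and 322 mRNA counts, 1.32% and 1.63%. Igkv4-59 had 1.03% and 0.137% in footprints, against 1.51% and 1.84% in mRNA. Igkv4-55 and Igkv4-59 were picked after their values were seen.

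In the test across all genes, 92 of the 160 segments passed the filter, 24 were called higher in footprints than in mRNA of B cells and 0 lower. Igkv2-137 and Igkv8-18, both called, passed the filter through their footprint counts alone. Such segments had to differ, so their calls only describe them. Over all genes tested, 7.25% were called higher and 11.9% lower. At an unadjusted p under 0.05 edgeR had 45 higher and 1 lower, Igkv4-55, and DESeq2 called 29 higher and 0 lower. The CPM of 55 of the 92 lay above mRNA in both footprint libraries and that of 2 below, as did 23.1% and 44.5% of all genes tested. The median estimate was 1.31 over the 92 segments and -0.33 over all genes. Igkv6 and Igkv12 had 4 called segments each, of 8 and 6 tested, Igkv14 had 3 of 4 and Igkv4 had 3 of 26. None of the 8 Igkv1 segments tested was called, and their median was 0.95. With no filter on low counts 2 segments were called, in the fit of all 8 libraries 3, and with library sizes set to the Igkv sum 1. Without B cell footprint library 3 the count was 10, without B cell RNA-seq library 3 it was 9 and without RNA-seq library 1 it was 29.

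Igkv2-137 had the largest estimate. It had 7 and 7 footprint counts in B cells, against 1 and 0 in mRNA, a ratio of 549 scaled to the libraries with a counting interval of 83.5 to 23210. This V segment is the one farthest from Igkj1 (67555636 to 67556216), and it also had 2 and 2 footprint counts in T cells with none in T cell mRNA. All 4 footprint libraries therefore held it, and 1 of 4 mRNA libraries. Igkv14-130 had 6 and 14 footprint counts, against 33 and 22 mRNA counts, a log2 difference of 3.83 ± 0.60 (edgeR adjusted p = 0.00896). It was not called without RNA-seq library 1 (4.15, adjusted p = 0.225) or 3 (3.54, adjusted p = 0.340).

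Igkv15-103 had 266 and 355 CPM in footprints, against 58.8 and 22.4 CPM in mRNA, a log2 difference of 2.93 ± 0.49 with an edgeR adjusted p of 0.0112. Igkv6-32 gave 2.71 ± 0.35 (edgeR adjusted p = 0.00489). Both kept the call whichever library was left out. Igkv19-93 gave 1.87 ± 0.28 (edgeR adjusted p = 0.00804) and also kept it. Igkv14-111 at 2.04 ± 0.45 and Igkv6-15 at 1.83 ± 0.49 had edgeR adjusted p-values of 0.0254 and 0.0428, and neither was called without footprint library 3 (1.86 and 1.14, adjusted p 0.0686 and 0.168) or RNA-seq library 3 (1.51 and 1.39, adjusted p 0.0536 and 0.0832). The leading segments of the mRNA, Igkv1-117 and Igkv1-110, had estimates of 0.18 ± 0.41 and -0.08 ± 0.43. The remaining segments that the rule named rested on few footprints. Igkv9-123 had 13 and 1 footprint counts, Igkv8-18 had 2 and 5, and Igkv12-38 had 3 and 14, with log2 differences of 3.16 ± 0.83, 3.01 ± 0.73 and 2.76 ± 0.77 and edgeR adjusted p-values of 0.0414, 0.0325 and 0.0492. Igkv9-123 fell to 0.45 with an adjusted p of 0.831 without footprint library 1, and was not called without RNA-seq library 1 (3.09, adjusted p 0.614) or 3 (3.07, adjusted p 0.703). Igkv12-38 was not called without footprint library 3 (1.14, adjusted p 0.457) or RNA-seq library 1 (3.32, adjusted p 0.423) or 3 (2.36, adjusted p 0.573), nor Igkv8-18 without footprint library 3 (2.10, adjusted p 0.260).

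The kappa joining segments, which encode the end of the variable domain, were also counted. Igkj1 to Igkj5 together had 17.8 and 14.0 counts per 100 Igkv counts in B cell footprints, against 0.900 and 1.40 in B cell mRNA. The Igkv sum and Igkc, parts of the same mRNA, gave log2 differences of only 1.28 and 1.70 between these assays. How reads that cross a V-J or J-C join were counted was not given in the sources used here. Levels of joining segments are therefore uncertain, and their difference between assays describes counts only. Of the 5 joining segments, Igkj1, Igkj2, Igkj4 and Igkj5 were called higher in footprints, with log2 differences between 4.43 ± 0.32 and 6.33 ± 0.35. Igkj3, at 5.46 CPM in B cell mRNA, had no footprint count in B cells or T cells. Igkj1 and Igkj2, at 4.42 and 4.99 CPM in B cell mRNA, had 358 and 288 CPM in B cell footprints. Why Igkj3 had none was not tested. Of 6 lambda genes tested 1 was called higher, Iglv3, and of 7 heavy chain constant genes 2 were, Ighg2b and Ighg2c. Over all genes tested in that fit, 7.25% were called higher. Igkv per Igkc count was 0.232 and 0.483 in B cell footprints and 0.445 and 0.464 in B cell mRNA, so that the footprint libraries lay on both sides of the mRNA value.

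Usage was also laid out by distance from Igkj1 in steps of 800 kb. Segments within 800 kb, 39 members, held 28.6% and 30.9% of Igkv counts in B cell footprints, against 23.8% and 26.1% in B cell mRNA. Those from 1600 to 2400 kb, where Igkv15-103, Igkv10-96 and Igkv19-93 lie, held 24.3% and 24.6% in footprints, against 16.2% and 18.4% in mRNA. The farthest step, from 2400 to 3200 kb, with Igkv1-110, Igkv1-117 and Igkv1-135, held 26.6% and 22.3% in footprints, against 30.8% and 32.3% in mRNA. In the step from 800 to 1600 kb footprints had 20.5% and 22.2%, against 29.2% and 23.2% in mRNA. Footprint shares were thus above both mRNA shares within 800 kb and from 1600 to 2400 kb, and below both in the other steps. Igkv5-39 and Igkv4-61 lie between 800 and 1600 kb.

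**Figure D3:**
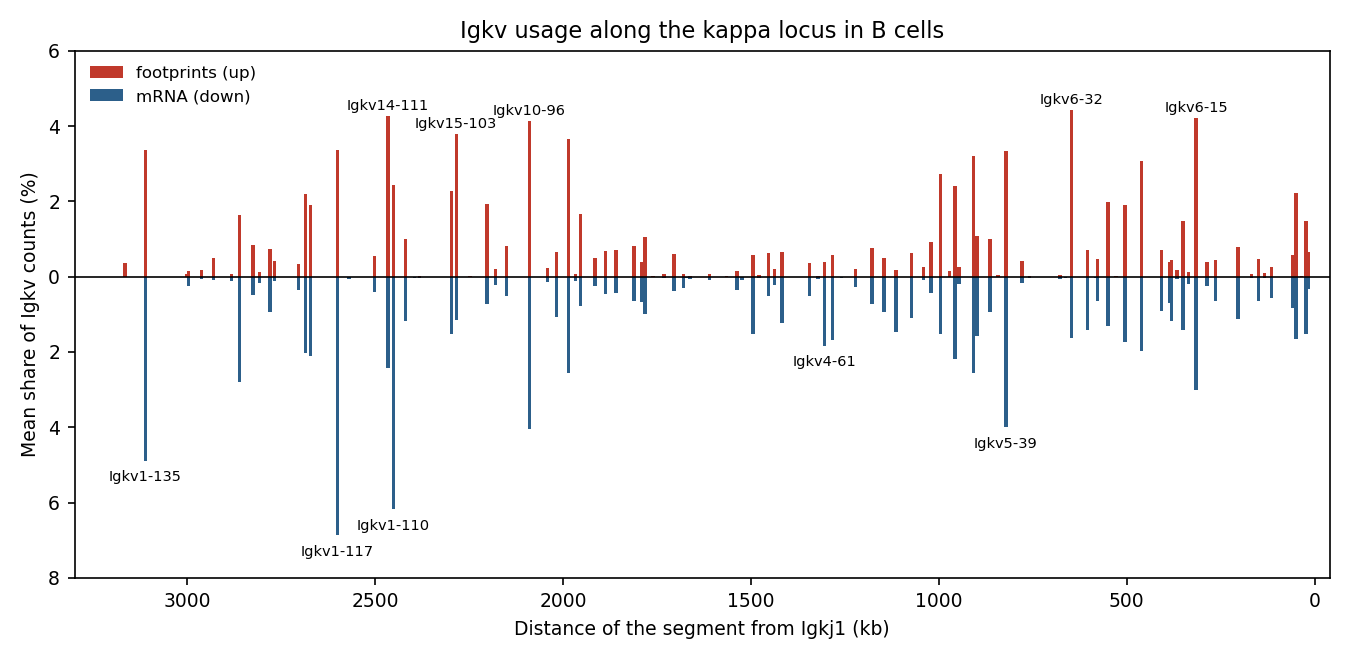
Mean share of Igkv counts (y axis, %) of each segment at its distance from Igkj1 (x axis, kb), with footprints of B cells as bars upward and mRNA of B cells as bars downward. Segments in use are spread over the whole 3200 kb, with Igkv1-117 and Igkv1-110 as the longest downward bars and Igkv6-32 and Igkv14-111 as the longest upward ones.

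In B cell mRNA, Igkv4-61 and Igkv5-39 had the largest ratios of shares between libraries 1 and 3 among the 82 segments with at least 50 counts, and were singled out after their values were seen. The next above them was Igkv14-126 with a ratio of 1.94, and at the other end Igkv4-92 had 0.431, Igkv9-123 0.461 and Igkv4-50 0.502. Igkv5-39 (69900424 to 69900977) had 2802 and 286 counts in B cell RNA-seq libraries 1 and 3, 6.55% and 1.45% of Igkv counts. Igkv4-61 (69416893 to 69417425) had 1418 and 68 counts, 3.32% and 0.345%, a ratio of shares of 9.61. Together they held 9.87% of Igkv counts in library 1 and 1.80% in library 3. In T cell mRNA they held 14.6% in library 1 and 2.61% in library 4, so that library 1 was the high one in both cell types. In footprints they held 3.32% and 4.12% in B cells, and their counts were 48 and 82 for Igkv5-39 and 7 and 8 for Igkv4-61.

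The 2 RNA-seq libraries numbered 1 were thus alike in usage although they came from different cell types. Spearman's rho over the 101 V segments was 0.967 between B cell library 1 and T cell library 1, 0.872 between T cell libraries 1 and 4 and 0.964 between B cell libraries 1 and 3. The same 2 libraries had high counts of secreted antibody classes. Igha had 3293 and 1047 CPM in B cell libraries 1 and 3, and 3408 and 246 CPM in T cell libraries 1 and 4. The sum of the 11 plasma cell genes was 2700 and 1266 CPM in B cells and 1329 and 265 CPM in T cells, with 1 of the 11 at 0 in T cell library 4 and 0 of the 11 in the others. Whether cells of another type account for the 2 segments was not tested.

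**Figure D4:**
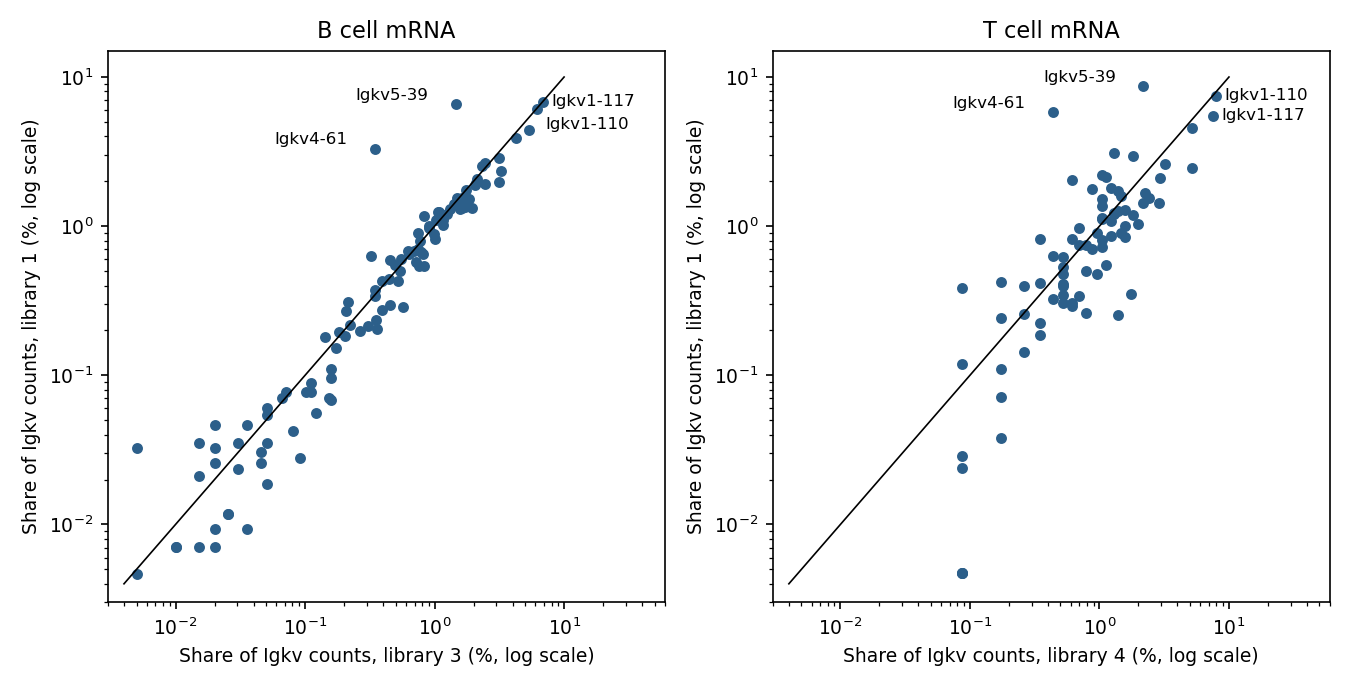
Share of Igkv counts of each segment in RNA-seq library 1 (y axis, %, log scale) against the partner library (x axis, %, log scale), for B cells (left, partner 3) and T cells (right, partner 4); the line marks equal shares and segments with 0 counts in a library are not drawn. Igkv5-39 and Igkv4-61 lie far above the line in both panels, at 6.55% and 3.32% in B cell library 1 and 8.74% and 5.81% in T cell library 1.

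In T cell libraries Igkv counts were present but uneven. T cell footprint libraries 1 and 2 had 275 and 176 Igkv counts, 0.0438% (exact binomial 95% interval 0.0388% to 0.0493%) and 0.129% (0.111% to 0.150%) of all counts. For T cell mRNA, library 1 held 21011 and library 4 held 1150, or 0.209% (0.206% to 0.212%) and 0.0129% (0.0121% to 0.0136%). These intervals cover counting error alone. Of the 160 members, 63 and 53 had counts in the T cell footprint libraries and 98 and 86 in the T cell mRNA libraries. No segment had counts in a T cell library without counts in B cells of the same assay.

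Set against the mean of the 2 B cell libraries of the same assay, the Igkv sum was 5.35% and 15.7% in T cell footprint libraries 1 and 2, and in T cell mRNA 62.3% in library 1 and 3.83% in library 4. The B cell identity list, summed, was at 2.31% and 5.24% in T cell footprints and 1.61% and 2.60% in T cell mRNA. In each T cell library the Igkv sum thus stood higher, relative to B cells, than this summed list, and T cell RNA-seq library 1 was the extreme. The median gene of the list stood at 1.73% and 5.03% in T cell footprints and 1.08% and 1.69% in T cell mRNA. Not every gene of the list was that low, since Cd72 averaged 88.0 CPM (TMM) in T cell mRNA, against 538 CPM in B cell mRNA. Ighd, the heavy chain class of naive B cells, was at 0.489% and 1.64% in T cell mRNA. Jchain was at 128% and 7.85%, Igha at 157% and 11.3% and Igkc at 53.2% and 4.28%. The plasma cell list was at 67.0% and 13.4% in T cell mRNA and at 15.6% and 24.1% in T cell footprints, where 2 of its 11 genes were at 0 in each library. The part of plasma cells or B cells in these counts was not tested.

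**Figure D5:**
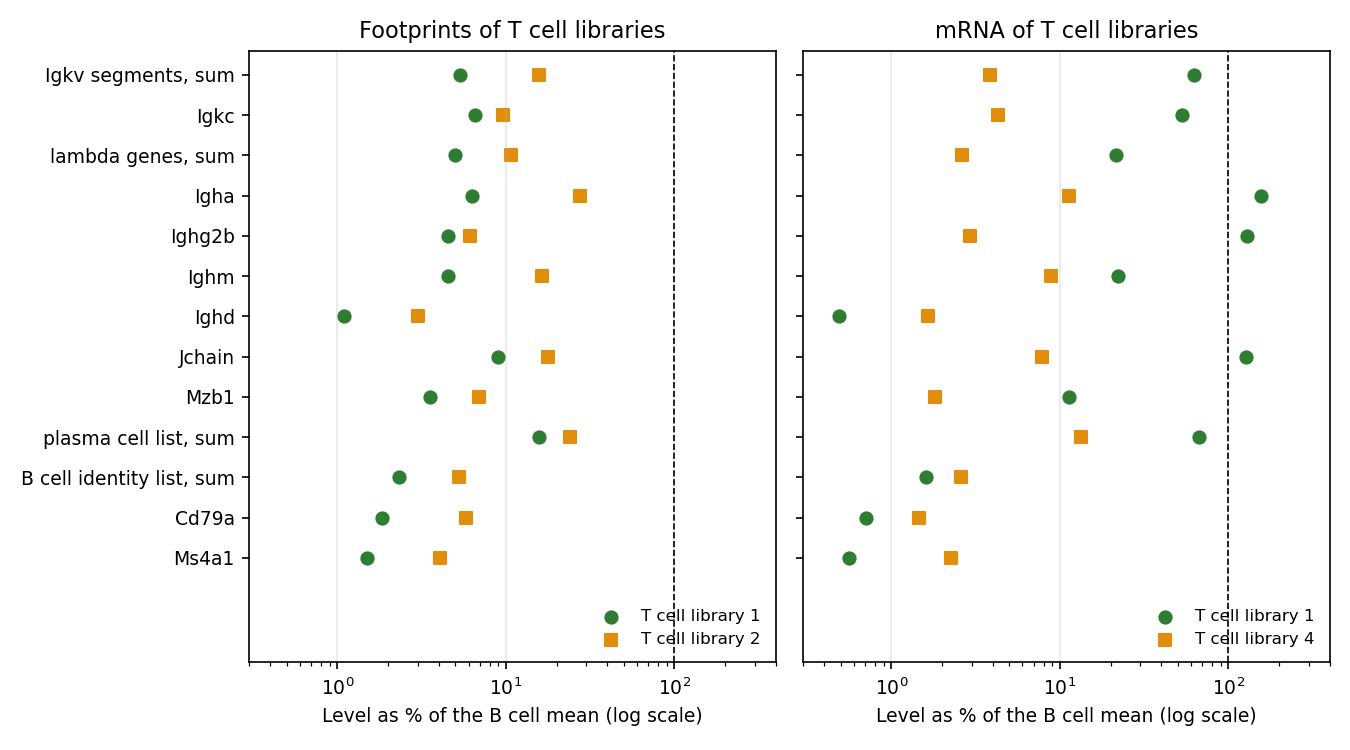
Level in each T cell library as a percentage of the mean of the 2 B cell libraries of the same assay (x axis, log scale, dashed line at 100%), for footprints (left) and mRNA (right); rows are Igkv segments summed, other antibody genes, Jchain, Mzb1, the plasma cell and B cell identity lists and 2 B cell genes. In mRNA, T cell library 1 reaches 62.3% for Igkv and 128% for Jchain while the B cell identity list stays at 1.61%.

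Usage in T cell libraries resembled that in B cells, with Spearman's rho over the 101 V segments of 0.690 to 0.771 between T and B cell footprint libraries and 0.891 to 0.967 between T and B cell mRNA libraries. Igkv10-96 and Igkv6-15 had the most counts in T cell footprint library 1, 18 each, and Igkv5-39 with 14 and Igkv1-88 with 13 in library 2. In T cell RNA-seq library 1 Igkv5-39 led with 1837 counts, then Igkv1-110 with 1563 and Igkv4-61 with 1221. In library 4 Igkv1-110 led with 92 counts, then Igkv1-117 with 86. Igkv1-110 and Igkv1-117 are also the first 2 of B cell mRNA. The family Igkv1 stood at 15.3% and 15.3% in T cell footprints and 16.7% and 22.7% in T cell mRNA. Whether the difference of assays itself varied with cell type was tested by an interaction in a fit of all 8 libraries, added after seeing the data. It gave 1.85 ± 1.47 for the Igkv sum, with an edgeR adjusted p of 0.904. It called 0 of 17 families, none of which had an unadjusted p under 0.05, and 0 of all 13151 genes tested with them. Since the fit called no gene at all, the lack of calls says nothing particular about Igkv families. Without T cell RNA-seq library 1 the sign turned, to -1.38 ± 0.97 for the Igkv sum.

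The level in B cells was tested against that in T cells within each assay. In footprints, 41 of 160 segments passed the filter, and 38 were called higher in B cells and 0 lower, where 8.38% of all genes tested were higher and 4.80% lower. DESeq2 also gave 38 and 0, and no segment was lower at an unadjusted p under 0.05. The median log2 difference was 3.92 over the 41 segments and 0.02 over all genes. With Igkv4-50, which had no T cell count, at its bound the median was the same to 2 decimals. All 41 segments passed the filter through the B cell libraries, and none would have passed through the T cell libraries alone. The filter thus favoured segments high in B cells, so this count only describes them. Igkv1-88, with 11 and 16 B cell counts and 4 and 13 T cell counts, overlapped between the cell types, at 0.99 ± 0.96 with an edgeR adjusted p of 0.625. Igkv8-21 and Igkv4-57-1 were the other 2 that did not pass.

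Igkv4-50 had 17 and 18 footprint counts in B cells and none in T cells. Against a floor of 3 counts over the T cell group it was at least 21.6-fold higher in the B cells. Igkv6-17 had 22 and 35 B cell counts, against 2 and 0 T cell counts, a ratio of 52.8 with a counting interval of 14.0 to 447. Igkv13-84 (22 and 17, against 2 and 0) and Igkv2-109 (13 and 27, against 1 and 1) had ratios of 36.2 (9.36 to 309) and 37.1 (9.62 to 317). Igkv4-70 and Igkv3-1 had a single count over both T cell libraries, with ratios of 44.5 (7.26 to 1830) and 46.4 (7.59 to 1903). Without T cell footprint library 1, Igkv4-70 (log2 difference 6.40, edgeR adjusted p = 0.114) and Igkv3-1 (2.81, 0.304) were not called, nor was Igkv2-109 (4.20, 0.170) without B cell footprint library 3. With all 4 libraries these estimates were 5.10, 5.08 and 4.98, so that of Igkv4-70 was not smaller where its call was lost.

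In mRNA the result turned on T cell library 1. Of 91 segments that passed the filter, 6 were called higher in B cells and 0 lower, where 9.40% of all genes tested were higher and 9.06% lower. The 6 passed the filter through their B cell counts alone and so had to differ, and their count is a description. Both libraries of B cells lay above both of T cells for 60 of the 91, as they did for 30.0% of all genes tested. DESeq2 called 10 higher and 0 lower, and at an unadjusted p under 0.05 edgeR had 13 higher and 0 lower. All 91 estimates were above 0, with a median of 1.80, against -0.01 over all genes. Without T cell RNA-seq library 1 the count was 78 of 99 segments tested and the median 4.90. It was 3 without B cell RNA-seq library 1 and 2 without library 3. Igkv1-117 had 327 and 149 CPM (TMM) in B cells, against 118 and 9.09 CPM in T cells, and gave 1.91 ± 1.16 with an edgeR adjusted p of 0.340. Without T cell library 1 it gave 4.71 with an adjusted p of 0.0165.

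The 6 segments called in mRNA were rare, each under 5 CPM on average, and are named here after their values were seen. Igkv4-73 had 24 and 24 B cell counts and Igkv4-60 had 15 and 10, with none in T cells. Against the floor of 3 counts they were at least 17.1-fold and at least 8.91-fold higher in B cells. Igkv10-95 had 47 and 31 B cell counts, against 0 and 1 T cell counts, a ratio of 83.4 (14.5 to 3335). Igkv4-92, Igkv9-129 and the pseudogene Igkv4-77 had 60, 72 and 53 counts over both B cell libraries, against 1, 2 and 2 over both T cell libraries. Over the 89 segments with at least 30 B cell counts, the median stood at 53.0% of the B cell mean in T cell library 1. Over all 160 members, without that limit on counts, T cell library 1 lay above the lower B cell library in 33 segments and above both in 0. In T cell library 4 the median segment stood at 3.77%.

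In mRNA, Igkv5-39 and Igkv4-61 showed no difference between the cell types beyond the spread of their libraries. Igkv5-39 had 315 and 31.3 CPM in B cell mRNA and 187 and 2.64 CPM in T cell mRNA, with a log2 difference of 0.87 ± 1.83 (edgeR adjusted p = 0.799). Its sign turned without B cell RNA-seq library 1 (-1.59) and without T cell library 4 (-0.11). Igkv4-61 had 159 and 7.43 CPM in B cells and 124 and 0.528 CPM in T cells, at 0.42 ± 2.05. In both cell types library 1 was the high one. In footprints Igkv5-39 was called higher in B cells, with 48 and 82 counts, against 14 and 14 in T cells, at 2.69 ± 0.66 (edgeR adjusted p = 0.0172), although not without T cell footprint library 1 (1.50, adjusted p = 0.221).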

How the data were processed

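The authors deposited whole-number counts per Ensembl gene, 1 table for each of the 8 libraries, per the labels and the values. Per the submitters' processing notes, FastQC, Bowtie2, TopHat and HTSeq were used with the mm10 build. Which versions, strand, feature and rule for reads with several matches applied was not given in the sources used here. Symbols were found for 53620 of 53801 IDs, and all 160 Igkv symbols matched the RefSeq table of GRCm38.p6. No count column was left unused.

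Counts were tested with edgeR 4.0.16 in R 4.3.3 (quasi-likelihood test, TMM, filterByExpr with a minimum count of 10 and total of 15, Benjamini-Hochberg over all genes tested, threshold 0.05). Only the 4 libraries of a comparison entered its fit, and families and the Igkv sum were formed by adding rows before the fit. DESeq2 1.42.0, other scalings and filters, a block for the replicate number and the omission of single libraries were alternatives. The scripts were tested on simulated data. Shares are of Igkv counts, with exact (Clopper-Pearson) intervals. Log2 differences carry standard errors after ±. Ratios of segments with 1 to 3 counts in a group carry exact counting intervals.

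Members, lists and tests were chosen with earlier results of these data known. Named segments were the 10 with the highest mean share in each B cell assay, the 6 with the largest difference per test and direction among those called, not overlapping and at 5 CPM or more, and the 5 with the most counts in each T cell library, of which the first are printed. Promoter motifs of the segments were not analysed here.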

Additional observations from a re-analysis of the deposited data

How the results depend on the processing

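Footprints called higher than mRNA in B cells numbered 24 segments. The count was 2 with no filter on low counts, 3 with all 8 libraries in one fit, 1 with sizes set to the Igkv sum, and 9 to 29 with a library left out. For the segments called lower the range was 0 to 1. For the families, 6 were called higher, 0 in the fit of all 8 libraries, 0 with sizes set to the Igkv sum and 3 to 13 with a library left out. The Igkv sum stayed uncalled throughout, at 0.80 to 1.95 with a library left out. In mRNA, B over T cells, 6 segments were called, 10 by DESeq2 and 2 to 78 with a library left out. In footprints 38 were called, 64 with no filter and 26 to 46 with a library left out. The absence of a filter moved the median of all genes by -1.28, the Igkv sum as size by -1.45 and the fit of all 8 libraries by -0.11 in the segment table. Beyond that, the cause was not tested.

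The numbers 1 and 3 shared by the B cell libraries were not taken as pairs, since the labels do not say what they mark and there are only 2 of them. Across genes, the deviations of same-numbered libraries had a correlation of -0.03 over 11930 genes and -0.10 over 92 segments. Counting error of the few footprints weakens such a correlation, so it cannot tell whether the libraries are paired. The T cell identity list was lower in library 1 than in library 3 in both assays. It had 152 and 421 CPM in footprints and 110 and 1270 CPM in RNA-seq. The plasma cell list went opposite ways, with 2496 and 4205 CPM in footprints and 2700 and 1266 CPM in RNA-seq. With the number as a replicate block, 39 segments and 13 families were called, and the Igkv sum gave 1.37.

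Signs turned for some uncalled estimates of footprints over mRNA. Igkv1-110 gave 0.11 without footprint library 1, 0.57 without RNA-seq library 1 and 0.028 with the block, and -0.56 to 0.57 over the libraries left out. Without RNA-seq library 3, Igkv1-117 gave -0.30, Igkv5-39 -0.16 and the family Igkv1 -0.052, the low ends of ranges that reached 0.82, 3.16 and 1.02. With sizes set to the Igkv sum, Igkv1-117 gave -1.03, Igkv17-127 -0.79, Igkv1-135 -0.54 and Igkv5-39 -0.27, and the families gave -0.85 for Igkv1, -0.52 for Igkv4, -0.35 for Igkv11, -0.32 for Igkv17, -0.26 for Igkv13, -0.20 for Igkv8, -0.077 for Igkv9, -0.069 for Igkv10 and -0.025 for Igkv3. In mRNA, B over T cells, Igkv5-39 gave -1.59 when B cell library 1 was left out, -0.11 when T cell library 4 was and 6.03 when T cell library 1 was. The mRNA share of Igkv1 was 20.5% without Igkv5-39 and Igkv4-61, and 14.2% per kb of span. The last 2 settings, and the interaction fits, were chosen after seeing the data. A fit with a lone library in a group assumes that it varies like the others. Footprint depth limits the rarest segments, since 3 counts make up 0.181% and 0.137% of Igkv footprints in the B cell libraries and 1.09% and 1.70% in those of T cells.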
